A study of Mus musculus with 18 samples.

Results

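The left ventricle (LV) and the right ventricle (RV) of mouse hearts were compared after 4 h of cold storage and 1 h of reperfusion outside the body. The comparison rested on 6 of the 18 RNA-seq libraries of the series, 3 from LV and 3 from RV, chosen by the ventricle and storage time in their labels and by no measured value. The hearts came from wild type mice of the C57B/L6 strain, labelled 12 weeks old, with no transgene. Each heart was flushed with HTK, a cold preservation solution, kept in ice-cold HTK for 4 h and then perfused with Krebs buffer for 1 h before both ventricles were taken. The other 12 libraries came from hearts treated alike but with 0 h or 8 h of storage, 3 libraries for each ventricle and time, so that cold storage of 4 h and reperfusion were shared by both groups compared here. RNA was drawn from pieces of ventricle, so the libraries mix heart muscle cells with vessel, connective tissue and immune cells. In the study's protocol a pressure balloon was placed in the RV first and then moved to the LV, and whether the sequenced hearts carried it is not given. An effect of that order cannot be told apart from that of the ventricle.

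The LV pumps against the pressure of the body and the RV against the lower pressure of the lungs, and they arise from different progenitor fields of the embryo, so that some genes keep a side-specific level in the adult. Load-responsive genes such as those of the natriuretic peptides and of the fetal contractile proteins are among those known to differ with wall stress. Ischemia followed by reperfusion is known to induce heat shock proteins, which keep damaged proteins from clumping, and immediate-early and NF-kB-dependent genes, which carry the early stress and inflammatory response.

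The total of estimated counts was 32699596, 30000527 and 28234045 in LV libraries 1, 2 and 3 and 43256111, 25858289 and 29910123 in RV, within the range of 22481691 to 46067992 of the whole series. Genes of the mitochondrial genome took 24.9% to 26.4% of the counts in LV and 26.1% to 27.7% in RV. The summed level of 10 cardiomyocyte markers, such as Myh6 and Tnnt2, lay between 66020 and 74760 CPM (counts scaled to the adjusted library size) in all 6 libraries, and 7 markers of lung epithelium were at 0 or too low to be tested. The 4 Y-linked genes summed to 173.2, 170.2 and 4.634 CPM in LV and 193.7, 178.5 and 4.882 CPM in RV, so that both libraries numbered 3 were low. No sex is given for the libraries, and the study's methods name male and female mice. Any part of sex in the differences between pairs was not tested. The deviations of same-numbered libraries from the group means were also correlated, and these libraries were therefore treated as pairs from the same heart, although the labels do not state it.

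Few genes separated LV from RV when the pairs were ignored, and many more did when each LV was set against the RV of its own number. Of the 15093 genes tested, 2 were called in the unpaired fit (0.0133%), Wif1 and Retnla, both higher in RV, and no gene was called higher in LV. A call required a Benjamini-Hochberg adjusted p under 0.1 in edgeR's quasi-likelihood test and a fold over 1.5. Without adjustment 446 genes had a p under 0.05, and DESeq2 called 10 genes higher in LV and 14 higher in RV. In the paired fit 2520 genes (16.7%) had an unadjusted p under 0.05, and edgeR called 126 genes higher in LV (0.835%) and 165 higher in RV (1.09%), together 1.93% of the genes tested. The libraries of the 2 ventricles did not overlap for 168 of the 291 genes called, beside 9.35% of all genes tested, and 284 of the 291 differed the same way in all 3 pairs, as 21.3% of all genes did toward LV and 21.3% toward RV. The median log2 difference (LV minus RV) of all genes was 0.002, with an interquartile range of -0.126 to 0.129. The unpaired p-values measure the spread between the libraries of a group. The paired ones measure the spread of the LV minus RV difference between pairs, and both spreads were estimated over all storage times. Nothing states that the libraries of a group came from separate hearts, so part of either spread may be technical.

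The calls leaned on all 3 pairs. Without pair 1 the paired fit called 192 genes, without pair 2 it called 49 and without pair 3 it called 86, of which 138, 42 and 75 were among the 291. A total of 33 genes were called in all of these fits, 19 higher in LV and 14 higher in RV, while 132 of the 291 were called in none of them. Those higher in LV included Acta1, Ankrd45, Bdh1, Cnksr1, Cpxm2, Dct, Depp1, Gnb3, Hsph1, Masp1, Mybpc2, Myh7, Myot, Nppb, Ptgds, Sorl1, Tmem144 and Xirp2. Those higher in RV included Ccl24, Chl1, Hexim1, Igf2, Plagl1, Ptgir, Retnla, Slc16a13, Vasn, Vwf, Wif1 and Zmynd15. The genes of both enumerations were picked after their values were seen.

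Several load-related and fetal genes of the heart muscle were higher in LV. Of 24 tested genes of the list of fetal and load-related genes, 5 were called higher in LV and 1 higher in RV. The median log2 difference was 0.31 against 0.002 over all genes. Over all genes 0.835% were called higher in LV and 1.09% higher in RV, and 7481 of 15093 differences were below 0. These shares stand beside the counts of each list at 4 h below. Acta1, the skeletal muscle actin gene (chromosome 8, 123891769 to 123894751, minus strand, GRCm38), was at 367, 444 and 205 CPM in LV of pairs 1, 2 and 3 and at 156.5, 105.5 and 27.7 CPM in RV. All LV libraries thus lay above all RV libraries, and the lowest value of both ventricles was that of pair 3. Its log2 difference was 2.05 (SE 0.27, edgeR adjusted p = 0.0048), a level 4.14 times as high in LV.

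Nppb, which encodes the B-type natriuretic peptide released by stretched muscle (chromosome 4, 147985788 to 147987205, plus strand), was at 417, 337 and 327 CPM in LV and 203, 114 and 51.9 CPM in RV, a log2 difference of 1.74 (SE 0.23, edgeR adjusted p = 0.0054). The slow myosin gene Myh7 (chromosome 14, 54970684 to 54994626, minus strand) was at 72.1, 89.2 and 83.7 CPM in LV and 39.2, 49.9 and 39.3 CPM in RV. The groups did not overlap for either gene. For Myh7 the log2 difference was 0.93 (SE 0.13, edgeR adjusted p = 0.0082), and the call was lost when transcript lengths were entered as offsets (adjusted p = 0.128). Xirp2, a protein of the intercalated disc, was higher in LV by 0.64 (SE 0.08, adjusted p = 0.00389), from 559, 638 and 425 CPM in LV against 383, 409 and 253 CPM in RV, with pair 3 the lowest in each ventricle. Ankrd23, a stretch-responsive titin-binding protein, was at 864.5, 832 and 757 CPM in LV and 761, 565 and 353 CPM in RV. Its difference of 0.61 (SE 0.15, edgeR adjusted p = 0.0619) was called in the full fit and without pair 1, but not without pair 2 (0.283) or pair 3 (0.352). The related Ankrd1 had a log2 difference of 0.54, under the fold required. Nppa, which encodes the atrial natriuretic peptide, was not called (0.86, SE 0.49, adjusted p = 0.424). Nppa lay between 134 and 208 CPM in LV and at 46.4, 115 and 161 CPM in RV. The atrial markers Sln and Myl4 were also lowest in RV 1, at 0.341 and 4.80 CPM. In the other RV libraries they were at 10.4 and 42.9 CPM or more. All 10 atrial markers together summed to 1678, 1466 and 1448 CPM in LV and 1243, 1326 and 1303 CPM in RV. That sum was higher in LV in 3 of 3 pairs, with 8 differences above 0 and 2 below. None of the 10 was called by edgeR or DESeq2, and 2 had an unadjusted p under 0.05, both toward RV. The list's call toward RV was Nmrk2, a nicotinamide riboside kinase of striated muscle, with 13.8, 15.9 and 9.12 CPM in LV and 23.9, 20.2 and 15.1 CPM in RV (-0.62, SE 0.12, adjusted p = 0.0314), lost without pair 1 (0.18) and pair 3 (0.179).

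Most genes of the contractile apparatus did not pass the test. Of 33 sarcomere genes tested, the 2 called were Myh7 and Xirp2, both higher in LV, and the median log2 difference was 0.07. The main ventricular myosin gene Myh6 was at 33830, 29960 and 33580 CPM in LV and 33690, 33450 and 34880 CPM in RV (-0.07, SE 0.15, adjusted p = 0.895). Myot and Mybpc2, which were named by size and not from the list, code for a Z-disc protein and for the fast isoform of myosin-binding protein C. Myot was at 44.1, 57.8 and 41.9 CPM in LV and 19.6, 30.9 and 13.5 CPM in RV (1.22, SE 0.11, edgeR adjusted p = 0.00196). Mybpc2 was at 27.6, 22.6 and 26.1 CPM in LV and 11.7, 10.7 and 6.27 CPM in RV (1.43, SE 0.15, adjusted p = 0.00196). No library of LV fell to the level of an RV library for either gene, and both stayed called whichever pair was left out.

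**Figure D1:**
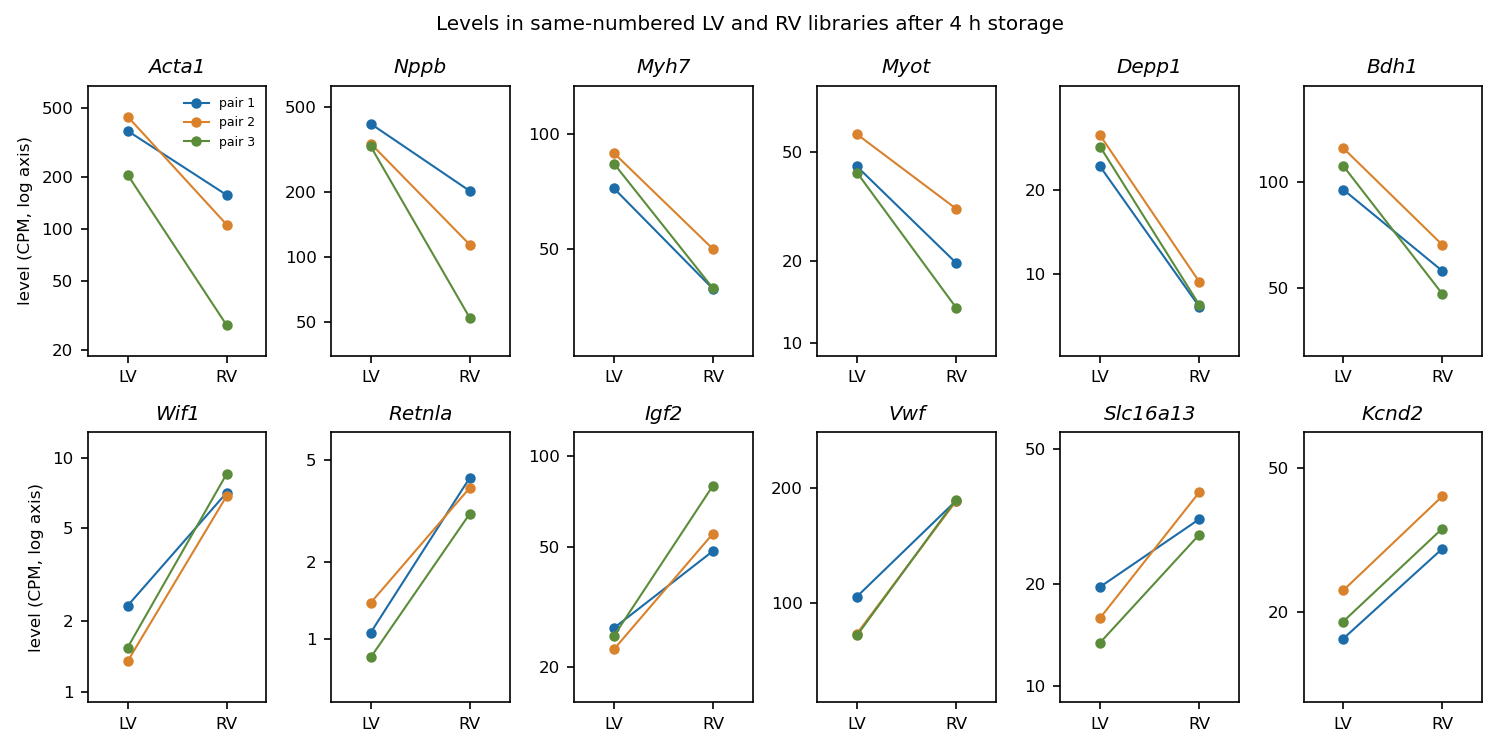
Levels of 12 genes in the 6 libraries after 4 h storage, in CPM on log axes that differ between panels, with a line joining the LV and RV library of the same number. Every line falls from LV to RV for Acta1, Nppb, Myh7, Myot, Depp1 and Bdh1 and rises for Wif1, Retnla, Igf2, Vwf, Slc16a13 and Kcnd2, and Acta1 in RV spans 27.7 to 156.5 CPM.

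Several metabolic and signalling genes were also higher in LV. Depp1, an autophagy regulator that responds to FoxO factors and fasting (chromosome 6, 116650609 to 116652794, plus strand), was at 24.2, 31.3 and 28.5 CPM in LV and 7.64, 9.38 and 7.76 CPM in RV. The 3 libraries of each ventricle lay close together, and the level was 3.38 times as high in LV (log2 1.76, SE 0.18, edgeR adjusted p = 0.00196). Bdh1, the mitochondrial enzyme that interconverts ketone bodies (chromosome 16, 31422280 to 31458901, plus strand), was at 95.1, 124.8 and 111 CPM in LV and 55.9, 66.3 and 48.1 CPM in RV (0.96, SE 0.09, edgeR adjusted p = 0.00196). Prostaglandin D synthase, encoded by Ptgds, was at 271, 299.5 and 271 CPM in LV and 161, 135 and 96.5 CPM in RV (1.13, SE 0.13, adjusted p = 0.0031). Gnb3, a G protein subunit, and Cnksr1, a Ras-pathway scaffold, were higher in LV by 1.51 (SE 0.18, edgeR adjusted p = 0.00347) and 1.25 (SE 0.13, adjusted p = 0.00196). None of these 5 genes overlapped between the ventricles or lost its call without a pair, and Ptgds was chosen for naming after its values were seen. The apelin receptor gene Aplnr had the largest log2 difference toward LV among the named genes, 2.17 (SE 0.42, edgeR adjusted p = 0.0277), from 2.49, 8.84 and 4.19 CPM in LV against 0.487, 1.71 and 1.21 CPM in RV. It was called in no fit that left out a pair (adjusted p 0.108, 0.238 and 0.106). Nrn1, a neuritin, and Aqp8, a water channel, differed by 1.67 (SE 0.24, adjusted p = 0.0087) and 1.33 (SE 0.25, adjusted p = 0.0249). Without pair 2 their calls were lost (0.113 and 0.195), and that of Aqp8 also without pair 3 (0.132).

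The metabolic gene lists gave few calls. Of 44 genes of fatty acid oxidation and PPAR targets, Bdh1 was higher in LV and 3 were higher in RV, with a median of -0.08 and 33 of 44 values below 0. Among the 3 were Ucp2, a mitochondrial carrier (-0.63, SE 0.14, edgeR adjusted p = 0.0478), and Acot1, a thioesterase (-0.63, SE 0.12, adjusted p = 0.0262). Acot1 was called in no fit that left out a pair (0.109 to 0.217), and Ucp2 without pair 1 (0.014) but not without pair 2 (0.283) or pair 3 (0.281). Of 40 genes of the hypoxia response and glycolysis, Pfkfb1, an isoform of the enzyme that sets fructose 2,6-bisphosphate, was called, at 3.86, 5.40 and 8.86 CPM in LV and 8.28, 13.7 and 20.5 CPM in RV. Its RV value was above its LV value in each pair although the groups overlapped (-1.22, SE 0.19, edgeR adjusted p = 0.0105), and without pair 2 the adjusted p was 0.113. No member of 44 nuclear-encoded respiratory chain genes was called by edgeR or DESeq2, none had an unadjusted p under 0.05 (16.7% of all genes in the paired fit), and the median was -0.07 with 40 of 44 values below 0. The 13 mitochondrially encoded genes gave the same counts of 0, with a median of -0.10 and 13 values below 0.

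Wif1 and Retnla, the genes called with and without pairing, were higher in RV at low levels. Wif1, a secreted inhibitor of Wnt ligands (chromosome 10, 121033960 to 121100650, plus strand), was at 2.33, 1.35 and 1.55 CPM in LV and 7.11, 6.89 and 8.55 CPM in RV. All RV libraries lay above all LV libraries, and the log2 difference was -2.10 (SE 0.22, edgeR adjusted p = 0.00196, unpaired 0.0512). Retnla, a resistin-like protein made by alternatively activated macrophages (chromosome 16, 48842551 to 48844461, plus strand), was at 1.06, 1.38 and 0.846 CPM in LV and 4.26, 3.89 and 3.08 CPM in RV (-1.78, SE 0.22, edgeR adjusted p = 0.00347, unpaired 0.0512). Leaving out any of the 6 libraries ended both unpaired calls, while no left-out pair ended the paired calls.

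Vwf, which encodes von Willebrand factor of vessel and endocardial lining cells (chromosome 6, 125546774 to 125686679, plus strand), was at 104, 83.0 and 82.1 CPM in LV and 185, 185 and 187 CPM in RV (-1.06, SE 0.09, edgeR adjusted p = 0.00196). The RV libraries were nearly equal and far above LV. Of 11 endocardial and large-vessel markers tested, 4 were called higher in RV, the others being Plvap, the diaphragm protein of fenestrae (-0.62, SE 0.13, adjusted p = 0.0388), Npr3, the natriuretic peptide clearance receptor (-0.59, SE 0.12, adjusted p = 0.0327), and Vcam1, a leukocyte adhesion molecule (-0.59, SE 0.15, adjusted p = 0.067). Without pair 2 or pair 3 the calls of these other 3 genes were lost (adjusted p 0.108 to 0.397), and without pair 1 that of Vcam1 as well (0.26). Vcam1 was also lost with length offsets (0.104). The 11 markers summed to 507.7, 426.7 and 648.8 CPM in LV and 762.5, 736.6 and 883 CPM in RV, lower in LV in 3 of 3 pairs. Of 13 general endothelial markers none was called by edgeR in the full fit. An unadjusted p under 0.05 was reached by 4, 3 toward LV and 1 toward RV. DESeq2 called 1 higher in RV, and without pair 1 edgeR called 1 higher in LV. The sum of the 13 was higher in LV in 3 of 3 pairs (log2 ratios 0.04 to 0.16). In tissue pieces, fewer cells of a type and less RNA per cell cannot be told apart.

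Igf2, Plagl1, Slc16a13 and Ccl24 were also higher in RV. Igf2, a fetal growth factor (chromosome 7, 142650766 to 142666816, minus strand), was at 26.9, 22.8 and 25.3 CPM in LV and 48.4, 55.3 and 79.9 CPM in RV (-1.26, SE 0.14, edgeR adjusted p = 0.00267). Plagl1, an imprinted zinc finger gene, was at 12.0, 9.39 and 10.7 CPM in LV and 19.9, 19.9 and 19.7 CPM in RV (-0.89, SE 0.12, adjusted p = 0.0074), and was chosen after its values were seen. For both genes each RV library exceeded each LV library, and no left-out pair ended the call. Slc16a13, a monocarboxylate transporter, was at 19.65, 15.9 and 13.5 CPM in LV and 31.1, 37.3 and 28.0 CPM in RV, without overlap (-0.98, SE 0.11, edgeR adjusted p = 0.003). Ccl24, a chemokine for eosinophils, was at 3.14, 1.25 and 1.03 CPM in LV and 6.89, 5.72 and 2.63 CPM in RV. The ventricles overlapped for Ccl24, but RV was higher within each pair (-1.52, SE 0.19, edgeR adjusted p = 0.00389). Among 51 tested signals of outflow tract and patterning, the 3 called were higher in RV, namely Wnt9b, a Wnt ligand (-1.11, SE 0.24), Sema3a, an axon guidance ligand (-0.78, SE 0.17), and Aldh1a2, the retinoic acid synthesizing enzyme (-0.61, SE 0.14), with edgeR adjusted p of 0.0386, 0.0379 and 0.0428. The median of these signals was -0.09. Sema3a was called without pair 3 (0.0857) but not without pair 1 (0.175), pair 2 (0.238) or with length offsets (0.226), and the others in no fit without a pair (0.102 to 0.283).

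Of 39 chamber transcription factors, 3 were called higher in LV and 1 higher in RV, with a median of 0.08. The Notch-responsive repressors Hey1 and Hey2 differed in opposite directions. Hey1 was at 6.31, 5.88 and 2.80 CPM in LV and 3.72, 2.57 and 1.87 CPM in RV (0.86, SE 0.16, edgeR adjusted p = 0.023), and Hey2 at 2.18, 2.25 and 3.24 CPM in LV and 3.70, 4.24 and 5.06 CPM in RV (-0.77, SE 0.14, adjusted p = 0.0227). Hey1 lost its call without pair 2 (0.224), and Hey2 whichever pair was left out (0.102 to 0.191). Irx1, a homeobox gene, and Tbx3, a conduction system T-box gene, were higher in LV by 1.08 (SE 0.30, edgeR adjusted p = 0.0861) and 0.63 (SE 0.17, adjusted p = 0.0851). Both lost the call with length offsets (0.318 and 0.265), Irx1 also without pair 1 or 3 (0.33 and 0.413) and Tbx3 whichever pair was left out (0.157 to 0.391).

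Ion channel genes gave few calls. Kcna5, a delayed rectifier potassium channel, was at 20.8, 33.8 and 39.6 CPM in LV and 11.9, 14.9 and 21.6 CPM in RV (0.95, SE 0.19, edgeR adjusted p = 0.029). Kcnd2, a pore subunit of the transient outward current, was at 16.9, 23.0 and 18.8 CPM in LV and 29.9, 41.8 and 34.0 CPM in RV without overlap (-0.85, SE 0.18, adjusted p = 0.0354). Kcne4, an accessory subunit, was the last of 3 called among 34 potassium and pacemaker channels, higher in LV by 0.63 (SE 0.15, adjusted p = 0.058). Scn10a, a sodium channel known from sensory neurons and the conduction system, was at 1.49, 1.03 and 1.29 CPM in LV and 3.58, 4.20 and 4.09 CPM in RV (-1.63, SE 0.28, edgeR adjusted p = 0.0171), the 1 call of 27 sodium channel, connexin and junction genes. All of these 4 were lost without pair 2 (0.171 to 0.368) and without pair 3 (0.102 to 0.257), and Kcnd2 without pair 1 (0.143). Of 35 calcium handling genes Casq1, the calsequestrin of skeletal muscle, was called (1.03, SE 0.26, adjusted p = 0.0674), and the call was lost with length offsets (0.138), without pair 1 (0.233) and without pair 3 (0.329).

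The inducible chaperone genes Hspa1a, Hspa1b, Hsph1 and Hsp90aa1 were higher in LV after 4 h, and Asns and Trib3 were higher in RV. Of 34 tested genes of the heat shock and unfolded protein response, 4 were called higher in LV and 2 higher in RV, and the median was 0.01 with 17 values on each side of 0. Hspa1a and Hspa1b encode the same inducible HSP70 protein and are near-identical copies on chromosome 17 of GRCm38, Hspa1a at 34969190 to 34972156 and Hspa1b at 34956436 to 34959238, both on the minus strand. Reads that fit both were divided between them by the authors' quantification, so the level of each is uncertain and their sum is the safer value. The sum was 2066, 2294 and 2351 CPM in LV and 1132, 773.2 and 587.7 CPM in RV, with every LV library above every RV library. Their promoters are shown because both genes differed in the same direction and carry the letters recognized by heat shock factor. The windows are the 250 bases before the RefSeq gene start on GRCm38.p6, minus strand, written 5′ to 3′, at chr17:34972157-34972406 for Hspa1a and chr17:34959239-34959488 for Hspa1b, and capitals mark the match to GAANNTTC.
Hspa1a: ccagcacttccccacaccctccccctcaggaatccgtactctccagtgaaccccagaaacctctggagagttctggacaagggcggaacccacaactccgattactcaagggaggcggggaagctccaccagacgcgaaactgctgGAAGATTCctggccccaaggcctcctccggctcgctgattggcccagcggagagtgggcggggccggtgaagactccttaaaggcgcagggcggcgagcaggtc
Hspa1b: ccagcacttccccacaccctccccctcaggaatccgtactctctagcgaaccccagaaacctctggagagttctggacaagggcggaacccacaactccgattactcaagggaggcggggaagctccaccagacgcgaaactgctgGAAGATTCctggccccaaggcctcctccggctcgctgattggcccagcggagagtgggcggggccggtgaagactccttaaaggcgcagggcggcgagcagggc
The match begins 104 bases before the start in both, and 247 of the 250 bases are identical. The core GAANNTTC or TTCNNGAA, each its own reverse complement, occurs in this window in 3932 of 27025 genes (14.5%) and in 10 of 28 genes of the list that have a promoter in the table. The 10 included Hsph1, but also Hspb1, Hspb6, Hspd1, Hspe1, Dnaja1, Dnajb4 and Asns. Hsp90aa1, which was also called higher in LV, was not among the 10.

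The fitted log2 difference was 1.36 for Hspa1a (SE 0.22, edgeR adjusted p = 0.0119) and 1.64 for Hspa1b (SE 0.26, adjusted p = 0.0122). Both lost the call without pair 2 (0.127 each) and without pair 3 (0.102 each), though the differences then remained between 1.12 and 1.59. Hsph1, a large HSP110 chaperone, was at 338.5, 232 and 226 CPM in LV and 222, 128 and 90.4 CPM in RV without overlap (0.93, SE 0.14, edgeR adjusted p = 0.00978), and kept its call whichever pair was left out. Hsp90aa1, the inducible HSP90, was at 696, 594 and 573 CPM in LV and 594, 376 and 299 CPM in RV, higher in LV within each pair (0.61, SE 0.13, adjusted p = 0.0342), and was not called without pair 2 (0.241) or pair 3 (0.229). Dnajb1, an HSP40 co-chaperone, was not called (1.09, SE 0.36, adjusted p = 0.142), with LV at 260, 270 and 408.5 CPM and RV at 226, 137 and 94.9 CPM. The constitutive Hspa8 was not called, at 2427, 2073 and 2568 CPM in LV and 2551, 2150 and 2437 CPM in RV (-0.02, SE 0.09, adjusted p = 0.959).

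Asns, asparagine synthetase, was at 15.5, 6.91 and 6.07 CPM in LV and 24.8, 13.1 and 11.05 CPM in RV (-0.81, SE 0.12, edgeR adjusted p = 0.0105). Trib3, a pseudokinase induced by ATF4, was at 6.37, 2.51 and 0.993 CPM in LV and 9.69, 4.05 and 2.81 CPM in RV (-0.83, SE 0.19, adjusted p = 0.0421). RV was above LV within each pair for both although the groups overlapped, with pair 1 the highest. Asns lost its call without pair 2 (0.11), and Trib3 in every fit that left out a pair (0.109 to 0.2). Atf4 itself, the transcription factor of this response, differed by -0.53 (adjusted p = 0.0315), under the fold required. The amino acid response core TGATGNAA, or TTNCATCA on the other strand, occurs in the same promoter window of 1056 genes (3.91%) and in 3 of the 28 list genes, Asns, Chac1 and Herpud1. Of these Chac1 and Herpud1 were not called (-0.47 and -0.15). Trib3 was not among the 3.

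**Figure D2:**
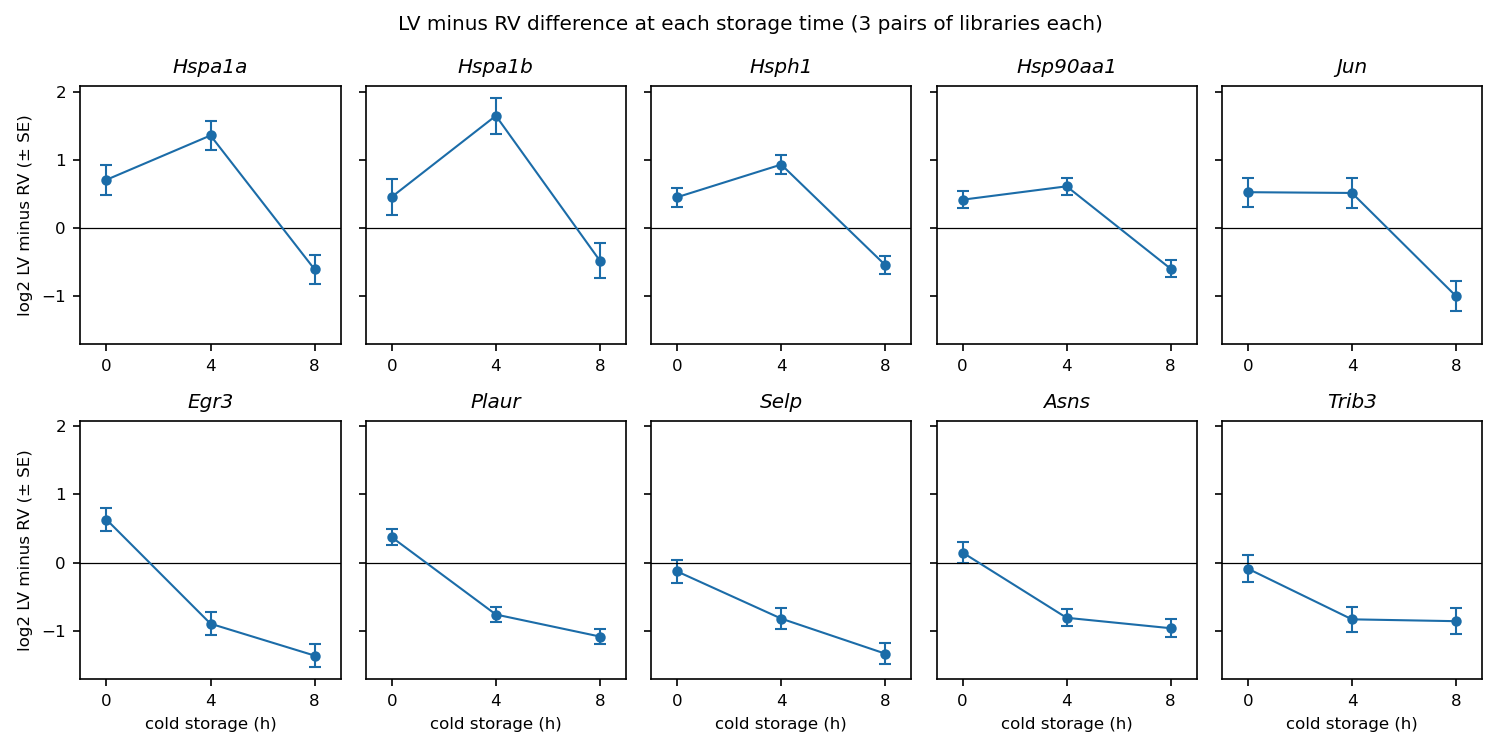
Log2 difference (LV minus RV) with its standard error for 10 stress-related genes at 0, 4 and 8 h of storage, from 3 pairs of libraries at each time, with lines joining the libraries of different hearts. The heat shock genes Hspa1a, Hspa1b, Hsph1 and Hsp90aa1 lie above 0 at 4 h and below 0 at 8 h, and Egr3 lies at 0.63 at 0 h, -0.90 at 4 h and -1.36 at 8 h.

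Inflammatory genes leaned toward RV, and few passed the test. Of 58 tested TNF and NF-kB related genes 6 were called higher in RV and none higher in LV, beside 1.09% and 0.835% of all genes. Of the 58 values 51 were below 0, beside 7481 of 15093 over all genes, and the median was -0.34. Selp, P-selectin of activated endothelium, was at 135, 124 and 275 CPM in LV and 209, 285 and 428 CPM in RV (-0.82, SE 0.15, edgeR adjusted p = 0.021). Plaur, the urokinase receptor, was at 147, 56.3 and 69.6 CPM in LV and 224, 124 and 101 CPM in RV (-0.76, SE 0.11, adjusted p = 0.0082). Tnf, which encodes tumor necrosis factor, was at 83.4, 76.2 and 59.5 CPM in LV and 132, 147 and 76.0 CPM in RV (-0.66, SE 0.15, edgeR adjusted p = 0.0483). For all 3 genes RV was higher within each pair while the ventricles overlapped. The other 3 were Nfkbid, a nuclear regulator of NF-kB (-0.75, adjusted p = 0.0262), Clec4e, a receptor for damage signals (-0.68, adjusted p = 0.0314), and Vcam1. Without pair 2 none of the 58 was called, and without pairs 1 and 3 the counts were 2 and 3. Without pair 2 the adjusted p was 0.2 for Selp and 0.35 for Tnf, while Plaur fell below the fold with -0.58 (0.066). Tnf was not called without pair 1 (0.179) or pair 3 (0.102) either. The 16 macrophage markers summed to 436.7, 472.5 and 322.1 CPM in LV and 521, 519.3 and 397.1 CPM in RV, lower in LV in 3 of 3 pairs (log2 ratios -0.30 to -0.14), and Cd163, a scavenger receptor of resident macrophages, was the 1 called (-0.66, SE 0.15, adjusted p = 0.0445, and 0.228 and 0.26 without pairs 2 and 3). The part of these markers in the leaning of the inflammatory genes was not tested. The neutrophil markers were near 0, with Ly6g at 0 in all 6 libraries. The 4 tested of the 8 listed summed to 3.855, 5.819 and 8.202 CPM in LV and 5.525, 7.235 and 10.35 CPM in RV. That sum was lower in LV in 3 of 3 pairs (log2 ratios -0.52 to -0.31), and its part was not tested either.

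Among the 11 cytokine, inflammasome and signalling genes whose proteins had been assayed in hearts so treated, Tnf and Nlrp3 were called, both higher in RV. Nlrp3, the sensor of the inflammasome, was at 27.6, 29.5 and 16.1 CPM in LV and 44.6, 54.2 and 20.6 CPM in RV (-0.65, SE 0.19, edgeR adjusted p = 0.0926). It was called in none of the fits that left out a pair (0.196 to 0.477) and not with length offsets (0.174). The cytokine genes Il1b (-0.47), Ccl2 (-0.38), Il6 (0.31) and Il10 (0.13) and the inflammasome and signalling genes Gsdmd (-0.22), Pycard (-0.26), Casp1 (-0.12) and Myd88 (-0.10) did not pass, with edgeR adjusted p between 0.145 and 0.925. Among 35 inflammasome and innate sensing genes, Nod2, a sensor of bacterial wall fragments, was called with 48.2, 34.8 and 44.6 CPM in LV and 63.7, 62.6 and 69.1 CPM in RV, without overlap (-0.62, SE 0.10, adjusted p = 0.0135). Without pair 2 the call of Nod2 was lost (0.152). Irak3, an inhibitor of Toll-like receptor signalling, was the last of the 3 called, beside Nlrp3 and Nod2 (-0.65, SE 0.14, adjusted p = 0.0388), lost whichever pair was left out (0.136 to 0.262).

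Of 20 complement genes 1 was called higher in RV and 1 higher in LV. The median was -0.18, with 17 of 20 values below 0. An unadjusted p under 0.05 was reached by 8 toward RV and 1 toward LV, beside 16.7% of all genes. The call toward RV was C3, the central component, at 273, 203.5 and 207 CPM in LV and 335.5, 296 and 433 CPM in RV, without overlap. The difference of C3 was -0.63 (SE 0.16, edgeR adjusted p = 0.0619), lost without pair 2 (0.276) and pair 3 (0.354). Masp1, a protease of the lectin pathway, was higher in LV, with 5.69, 5.34 and 6.25 CPM against 2.99, 3.50 and 2.53 CPM in RV (0.94, SE 0.13, adjusted p = 0.0082), and kept its call whichever pair was left out. None of 70 interferon-induced genes was called by edgeR or DESeq2, 10 had an unadjusted p under 0.05, all toward RV, where all genes had 16.7%, and the median was -0.04. Ifit1, an interferon-induced protein that binds foreign RNA, was at 88.1, 60.4 and 511 CPM in LV and 87.8, 59.0 and 664.5 CPM in RV, high in both libraries of pair 3. Of 39 immediate-early genes 3 were called higher in RV, with a median of -0.15. Egr3, a zinc finger factor, was at 90.7, 58.7 and 37.1 CPM in LV and 174, 118 and 61.7 CPM in RV (-0.90, SE 0.17, edgeR adjusted p = 0.0232), and the others were Fosl1, an AP-1 subunit (-0.71, adjusted p = 0.0675), and Rgs2, a brake on G protein signalling (-0.71, adjusted p = 0.044). Egr3, Fosl1 and Rgs2 were called in none of the fits that left out a pair (adjusted p 0.102 to 0.449), and Fosl1 and Rgs2 were also lost with length offsets (0.122 and 0.177). In the full fits neither edgeR nor DESeq2 called a gene among 23 clock and output genes, 30 cell death genes and 48 ribosomal protein genes. An unadjusted p under 0.05 was reached by 13, 8 and 1 of them, beside 16.7% of all genes. Of these 10, 6 and 1 were toward RV and 3, 2 and 0 toward LV. Without pair 1 edgeR called 1 clock gene higher in LV and 3 higher in RV, and without pair 2 or pair 3 it called 0.

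**Figure D3:**
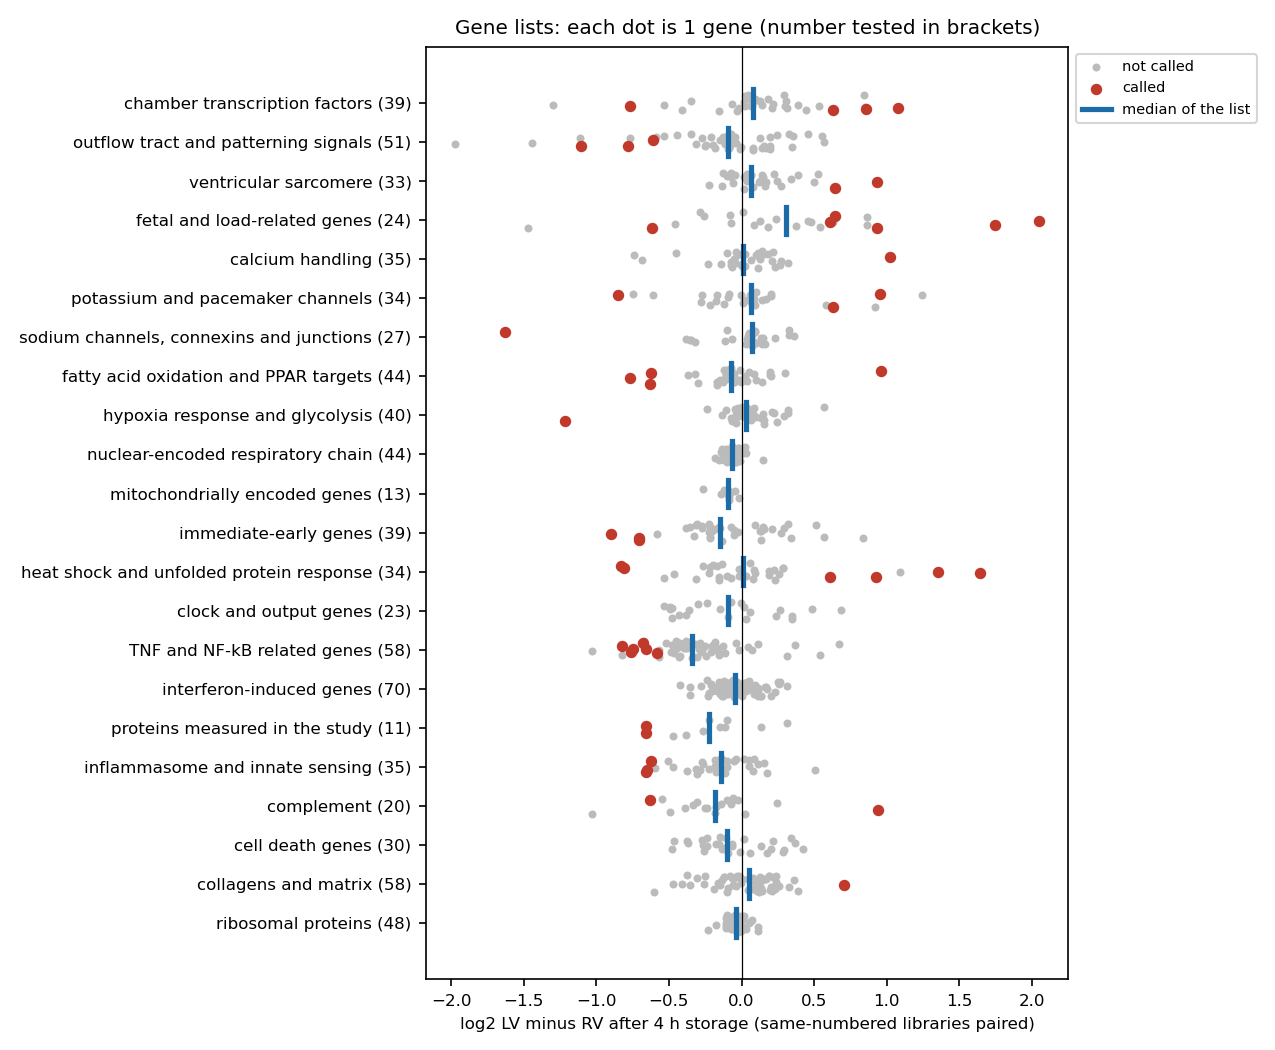
Log2 difference (LV minus RV, paired fit) after 4 h storage for each tested gene of 22 gene lists, with the number tested in brackets, called genes as large red points, other genes in grey and the list's median as a blue line. The medians run from -0.34 for TNF and NF-kB related genes to 0.31 for fetal and load-related genes, and each list holds few called genes.

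Other cell type markers gave few calls. None of 12 fibroblast markers was called by edgeR or DESeq2 in the full fits. An unadjusted p under 0.05 was reached by 7, beside 16.7% of all genes, 2 toward LV and 5 toward RV. Without pair 1 edgeR called 1 marker higher in RV. The sum of the 12 was lower in LV in 3 of 3 pairs, at 2767, 2159 and 2029 CPM against 2974, 2420 and 2807 CPM. As single genes they were split, 6 above 0 and 6 below, with a median of 0.04. Mesothelial and epicardial markers summed to 53.44, 31.38 and 30.27 CPM in LV and 64.64, 58.34 and 55.82 CPM in RV, and Wt1, their zinc finger factor, was called higher in RV (-0.66, SE 0.13, edgeR adjusted p = 0.0245). Without pair 2 or pair 3 the call of Wt1 was lost (0.191 and 0.125). Erythroid markers were high in both libraries of pair 1, at 84.81 CPM in LV and 106.5 CPM in RV against 5.601 to 11.77 CPM in the others. Proliferation markers were higher in LV in 3 of 3 pairs as a sum (16.29, 26.46 and 14.42 CPM against 13.05, 19.76 and 10.46 CPM), with 3 of 8 at an unadjusted p under 0.05 and none called by edgeR or DESeq2. Of 58 collagen and matrix genes, Col8a1, a collagen of vessel walls, was called higher in LV (0.70, SE 0.13, edgeR adjusted p = 0.0211, and 0.212 and 0.102 without pairs 2 and 3), and the median was 0.05. Of 8 valve and cartilage-like markers the 2 called, both higher in RV, were Wif1 and Sox9, a cartilage and valve factor (-0.68, SE 0.19, adjusted p = 0.0889), and Sox9 was called neither by DESeq2 (0.103) nor in any fit that left out a pair (0.294 to 0.323).

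**Figure D4:**
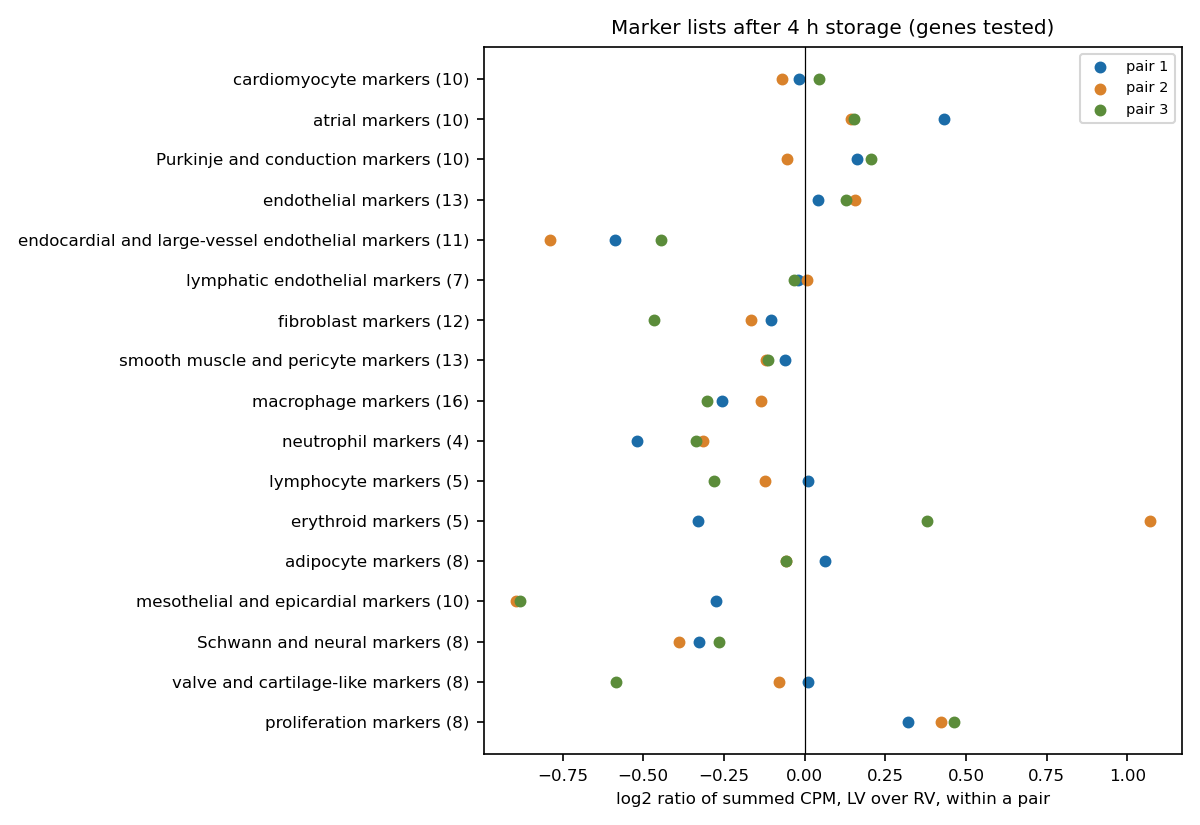
Log2 ratio of the summed CPM of each marker list, LV over RV, within each of the 3 pairs after 4 h storage, with the number of tested markers in brackets. Cardiomyocyte markers lie between -0.07 and 0.04, endocardial and large-vessel markers between -0.79 and -0.45, and erythroid markers are spread from -0.33 to 1.07.

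Most genes called after 4 h differed in the same direction in the libraries of the other storage times. Those libraries do not enter the estimated difference at 4 h, but they share the filter and the estimate of spread with it. With the 4 h libraries alone the paired fit called 380 genes, 270 of them among the 291. Of the 126 genes higher in LV, 105 (83.3%) were also higher in LV at 0 h and 111 (88.1%) at 8 h, against 59.5% and 70.5% of all genes with a positive difference at 4 h. Of the 165 higher in RV, 124 (75.2%) had the same sign at 0 h and 159 (96.4%) at 8 h, against 62% and 66%. At 0 h the paired fit called 49 and 52 of them the same way, beside 0.835% and 1.01% of all genes called toward LV and RV (1.85% together). At 8 h it called 65 and 131, beside 2.25% and 6.53% of all genes (8.78% together). In all, 43 genes higher in LV and 44 higher in RV were called the same way at all 3 times, and 52 and 24 at 4 h alone. The median log2 difference of the genes higher in LV was 0.52 at 0 h, 0.91 at 4 h and 0.62 at 8 h, and that of the genes higher in RV was -0.39, -0.78 and -0.90, where the 4 h value carries the selection. Wif1 differed by -2.23 at 0 h and -1.85 at 8 h, Acta1 by 2.60 and 2.19, Nppb by 2.95 and 1.44, Igf2 by -1.57 and -1.56, and Vwf by -1.26 and -1.17, all called at each time.

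**Figure D5:**
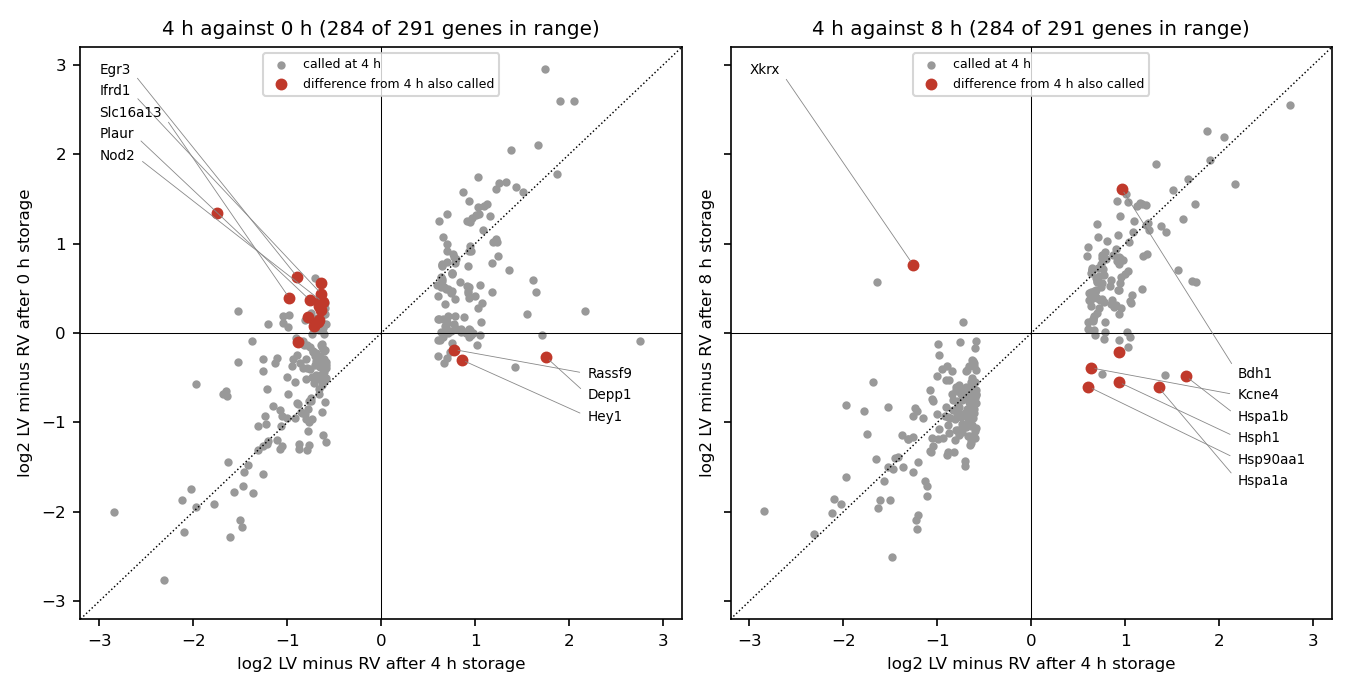
Log2 difference (LV minus RV, paired fit) at 0 h (left) and 8 h (right) against that at 4 h for the genes called at 4 h, of which 284 of 291 lie within the axes, with the dotted line marking equal values. Most points lie in the quadrants of equal sign, and red points, some with names, mark genes whose difference at 4 h was itself called different from that at the other time.

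For some genes the ventricle difference at 4 h departed from that without storage. In the paired fit the difference at 4 h minus that at 0 h was called for 46 genes (0.305%), 6 toward LV (0.0398%) and 40 toward RV (0.265%), and 44 of the 46 had opposite signs at the 2 times. Depp1 was not called at 0 h (-0.27) and higher in LV at 4 h (1.76), a change of 2.03 (edgeR adjusted p = 0.023). Slc16a13 went from 0.39 to -0.98 (change -1.37, adjusted p = 0.023), and Plaur from 0.37 to -0.76 (change -1.13, adjusted p = 0.045). Tnfrsf12a, the receptor of the cytokine TWEAK, went from a called 1.26 at 0 h to -0.14 at 4 h (change -1.39). These 4 genes and Zfp948 were the 5 whose change was called in all 3 fits that left out a pair of 4 h, and Zfp948 was chosen for that. The pairs of 0 h were not left out. With length offsets the change of Slc16a13 was not called (-1.09, adjusted p = 0.119). The changes of Egr3 (-1.53), Hey1 (1.16) and Nod2 (-0.97) were lost in some of these fits, Egr3 without pair 1 (0.178) and pair 2 (0.292), Hey1 whichever pair was left out (0.112 to 0.352), and Nod2 without pair 2 (0.292) and pair 3 (0.12). Without pairing, edgeR called no gene for this change, DESeq2 called none, and 158 genes had an unadjusted p under 0.05.

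Against 8 h, the difference was called for 59 genes (0.391%), 54 toward LV at 4 h (0.358%) and 5 toward RV (0.0331%), and 32 of them had opposite signs at the 2 times. The heat shock genes were among the 54. Hspa1a differed by 1.36 at 4 h and -0.61 at 8 h (change 1.96), Hspa1b by 1.64 and -0.48 (change 2.13), Hsph1 by 0.93 and -0.55 (change 1.48), and Hsp90aa1 by 0.61 and -0.60 (change 1.21). At 8 h the summed level of Hspa1a and Hspa1b was 1186, 957.8 and 4404 CPM in LV and 1754, 1592 and 5622 CPM in RV, higher in RV in each pair, the reverse of the order at 4 h. At 0 h the sum was 543.9, 204.6 and 63.87 CPM in LV and 214.6, 166.7 and 56.72 CPM in RV. Jun, an immediate-early AP-1 subunit, differed by 0.51 at 4 h, not called, and was called higher in RV at 8 h (change 1.51). All 39 immediate-early genes were called higher in RV at 8 h, against 3 at 4 h and 7 higher in LV at 0 h, and their medians were -0.98, -0.15 and 0.45. Of the TNF and NF-kB related genes 45 of 58 were called higher in RV at 8 h and none at 0 h, with medians of -0.75 and 0.07. Over all genes 6.53% were called higher in RV at 8 h, 1.09% at 4 h and 1.01% at 0 h, and 0.835% higher in LV at 0 h. Bdh1 was higher in LV by 0.96 at 4 h and 1.62 at 8 h (change -0.65). With length offsets the changes of Jun (adjusted p = 0.138) and Bdh1 (0.4) were not called. Without pair 1 of 4 h the changes of the 4 heat shock genes were still called (edgeR adjusted p 0.0849 to 0.0929). Without pair 2 or pair 3 of 4 h no gene was called (0.2 to 0.284 for the 4 genes). The pairs of 8 h were not left out. Without pairing, edgeR and DESeq2 both called 0 genes for this change, and 215 had an unadjusted p under 0.05.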

How the data were processed

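RNA-seq of LV and RV was analysed in the 6 libraries of 4 h storage, with the 12 libraries of 0 h and 8 h in the same fits. The authors deposited estimated counts per transcript of every library, made with Kallisto on GRCm38 transcripts and not normalized between libraries, beside TPM and effective lengths. The deposited TPM were not used in tests, and the lengths entered only the offsets. Counts of 110203 of 111462 transcripts were summed to 34989 genes (GENCODE M21; 1259 had no match) and rounded. Reads shared by paralogs had been divided between them, and counts are not independent molecules, so the error comes from the replicate libraries alone.

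After filterByExpr and TMM, edgeR 4.0.16 (limma 3.58.1, R 4.3.3) fitted 6 group means without pairing (12 residual degrees of freedom) or a term per heart with an LV term per storage time (the replicate block, 6 residual degrees of freedom). A call was an adjusted p under 0.1 with a fold over 1.5. CPM use the TMM-adjusted library size, and fold changes are 2 to the fitted log2 difference. The same-numbered libraries at 4 h had correlated deviations from their group means (Pearson r 0.523, 0.466 and 0.697 across 15093 genes), which is why numbers were taken as pairs. For same-numbered libraries r was 0.325 to 0.538 at 0 h and 0.531 to 0.697 at 8 h. Libraries of unlike number at 4 h had r of -0.487 to 0.11. Deviations cancel within a group, so positive values for same-numbered libraries force lower ones for the others. In fits without a pair, only the LV and RV libraries of that number at 4 h were left out. All libraries of 0 h and 8 h stayed in, so these fits do not show how far the changes between times lean on single pairs of 0 h or 8 h.

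Named genes were those called unpaired, the 12 largest differences in each direction among paired calls with a mean of at least 2 CPM, a gene name that is not a predicted one and equal direction in 3 pairs, the 5 most abundant of these in each direction, up to 4 called genes per list, the genes of proteins the study measured, and up to 8 per direction for the changes between times. Further genes are marked where they appear. Some genes that these rules choose are not reported here. The comparison, the lists and the named genes were chosen with earlier results of these data known. Alternatives were DESeq2 1.42.0, RLE size factors, no filter, length offsets, the 4 h libraries alone, mitochondrial genes left out, other thresholds, each library or pair left out, and the block added or dropped. Length offsets, mitochondrial genes and the thresholds for the changes between times were added after the data had been seen. The tests were also run on simulated counts in which same-numbered libraries shared a mean, so that run takes the pairing as given. Promoters and their motif matches came from RefSeq windows on GRCm38.p6, read with Python 3.11.15 and pandas 2.3.3.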

Additional observations from a re-analysis of the deposited data

Results flagged for a closer look

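The difference between LV and RV at 4 h departed from that at another storage time for 6 genes toward LV and 40 toward RV against 0 h, and for 54 toward LV and 5 toward RV against 8 h, each by a test of the difference itself in the paired fit (edgeR, 3 pairs of libraries per time). Without pairing none was called. Against 0 h, the named genes shifted toward LV at 4 h were Depp1 by 2.03, Hey1 by 1.16, Rassf9 by 0.96, Plekhf1 by 0.88 and Wdr81 by 0.79 on the log2 scale. Among those shifted toward RV were Ch25h by -1.55, Egr3 by -1.53, Klhl34 by -1.43, Tnfrsf12a by -1.39, Slc16a13 by -1.37, Plaur by -1.13, Ifrd1 by -1.08 and Nod2 by -0.97. Against 8 h, the named genes shifted toward LV at 4 h were Hspa1b by 2.13, Hspa1a by 1.96, Areg by 1.75, Jun by 1.51, Csf3 by 1.49, Hsph1 by 1.48, Lif by 1.47, Nts by 1.29, Hsp90aa1 by 1.21 and Kcne4 by 1.02. Xkrx by -2.03, Bdh1 by -0.65 and Ankra2 by -0.59 shifted toward RV. Ankra2 was not called by DESeq2 (adjusted p = 0.109) and was under the fold with RLE size factors (-0.579). For Areg and Xkrx DESeq2 gave no adjusted p. Depp1, Plaur, Slc16a13 and Tnfrsf12a kept the call against 0 h in all 3 fits without a pair of 4 h, and no gene did so against 8 h. With length offsets Slc16a13 and Ch25h lost the call against 0 h (edgeR adjusted p = 0.119 each). Klhl34 (0.138), Plekhf1 (0.169), Wdr81 (0.197) and Rassf9 (0.285) lost it as well. The calls against 8 h were lost for Xkrx (0.129), Jun and Lif (0.138 each), Nts (0.148) and Areg and Kcne4 (0.156 each). Ankra2 (0.171) and Bdh1 (0.4) lost theirs too.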

How the results depend on the processing

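The pairing of libraries decided most calls, and no named gene changed direction past a threshold under any alternative. Without pairing 0 genes were called higher in LV and 2 higher in RV. With the replicate block these became 126 and 165, and the changes between times, 0 in each direction without it, became 6 and 40 against 0 h and 54 and 5 against 8 h. Of the named genes, 73 lost the call when the block was dropped. The unpaired counts were 10 and 14 with DESeq2, and the RV count was 0 at an adjusted p under 0.05, with length offsets, with the 4 h libraries alone and without each of the 6 libraries in turn. The block counts were 69 and 105 at an adjusted p under 0.05 and 326 and 470 with no fold minimum. With length offsets the RV count was 105. Without a pair they were 32 to 80 higher in LV and 17 to 112 higher in RV. DESeq2 with the block called 235 genes, 214 of them among the 291. For the changes against 0 h with the block, the counts toward LV and RV were 30 and 122 with no filter, 13 and 118 with DESeq2, and 1 to 3 and 5 to 26 without a pair. Against 8 h they were 166 and 22 with no filter, 154 and 3 with DESeq2, and 0 to 13 and 0 without a pair. With fewer pairs the fits have fewer residual degrees of freedom, and the cause of the other shifts was not tested. With length offsets 16 named genes lost the call, and with an adjusted p under 0.05 it was 15. Of the genes called, 65 had a mean under 2 CPM, where few counts limit precision.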
